A study of Mus musculus with 16 samples.

Results

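Suprarenal aortae of male Vamp8-/- mice infused with angiotensin II (KO AngII) were compared with those of male C57BL/6 wild-type mice infused with saline (WT saline), over all genes. The samples were chosen by their titles alone, and they are 8 of the 16 libraries, with 4 in each of the 4 groups of the study. Angiotensin II, a peptide that constricts vessels and is used to provoke aortic disease in mice, was given at 1000 ng/kg/min, and both infusions ran from osmotic minipumps for 5 days. The vessels were perfused, the tissue around them was dissected away, and vessels with bleeding into the wall or other overt pathology were not sequenced, so the libraries describe walls without visible lesions. Genotype and infusion changed together in this comparison, so their parts cannot be told apart within it. The other 8 libraries, WT AngII and KO saline, share none with it and were compared with each other beside it. The labels call the replicates biological, and the sources used here give neither the age of the mice, the way the knockout was made nor the hour of collection. The comparison asks which gene programs of the stressed knockout wall lay below, at or above their level in the untreated wild-type wall.

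The media of the aorta holds smooth muscle cells between elastic lamellae, and these cells make most of its elastin and collagen. Angiotensin II acts on them and on adventitial fibroblasts through its type 1 receptor, and matrix production, proliferation and leukocyte entry are among its known effects on the wall. Vamp8 is a SNARE protein, one of the membrane-anchored proteins that pull vesicles and target membranes together, and it acts in late endosome and autophagosome fusion and in regulated secretion.

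Vamp8 itself (ENSMUSG00000050732) was read first. Its level, in counts scaled to library size by TMM (CPM), was 45.9, 51.9, 57.2 and 52.5 in the WT saline libraries and 26.7, 24.6, 26.0 and 14.1 in the KO AngII libraries. The groups did not overlap, and KO AngII kept 22.9 ± 5.9 CPM on average against 51.9 ± 4.64 in WT saline (mean ± SD, n = 4), a log2 fold change of -1.18 ± 0.23 (SE) with an adjusted p of 0.0185 in edgeR's quasi-likelihood test. Adjusted p-values throughout are from that test with Benjamini-Hochberg adjustment over all genes tested, and a gene is called higher or lower where the value is under 0.05. The call was lost without WT saline replicate 3 or 4 (adjusted p 0.0504 to 0.0685), in a fit of these 8 libraries alone (0.0662) and with a neuronal marker score as covariate (0.0522). The sources used here do not give the deleted part of the gene, so the reads that remain cannot be placed against it. Vamp5, a related SNARE gene, fell from 12.9 to 7.39 CPM (-0.80 ± 0.18, adjusted p = 0.0385), with the call kept in 7 of 16 fits that each left out 1 library (adjusted p 0.0529 to 0.136 in the others). In KO saline replicate 1, Vamp8 was at 53.3 CPM, within the range of the WT saline libraries. That replicate is in neither group compared here. It did enter the model of all 16 libraries that gave the adjusted p-values, and it is part of the KO saline means given below. Without it 201 genes were called in KO AngII against WT saline, where 177 were called with all libraries, and 166 genes were called in both fits.

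Totals ran from 13284804 to 19232357 reads over the 8 libraries, and neither total (exact two-sided permutation test, p = 0.257) nor the share of mitochondrially encoded reads (15.7 ± 6.03% in KO AngII, 13 ± 3.62% in WT saline, p = 0.514) separated the groups. The smallest p that 4 against 4 libraries allow is 0.0286. KO AngII replicate 4 stood apart by its sympathetic neuron and chromaffin markers, whose summed level was 5580 CPM there, 45.2 to 337 in the other KO AngII libraries and 27.9 to 88.4 in WT saline. Of these 13 markers none was called by edgeR or limma voom and 6 by DESeq2, 13 were higher at an unadjusted p under 0.05 (16.1% of all genes had such a p, 10.1% higher and 5.97% lower), and their median log2 fold change was 6.82, or 3.07 without that library. The filter was applied anew in each fit, so the number tested of the 16 listed markers could differ from 13. In edgeR 14 were called without KO AngII replicate 1, 12 without its replicate 3 and 1 without WT saline replicate 2. Dbh, the enzyme that makes noradrenaline, was at 0, 41.9, 0.109 and 831 CPM in KO AngII, and Th, the rate-limiting enzyme before it, at 0, 24.0, 0 and 481. Schwann cell markers summed to 1610 CPM in that library and to 262 to 526 in the other KO AngII libraries. Smooth muscle contractile genes were low in the same library (9750 CPM in sum, 20600 to 25900 in the others) and in WT saline replicate 2 (12700, with 31700 to 34100 in the others). Erythrocyte markers reached 19400 CPM in KO AngII replicate 3 and were 3050 to 4280 in the rest of its group. In bulk RNA, fewer cells of a type and less RNA per cell cannot be told apart.

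Of 15984 genes tested, 177 were called (1.11%), 95 higher (0.594%) and 82 lower (0.513%) in KO AngII. The KO AngII and WT saline libraries did not overlap in 170 of the 177, and in 1027 (6.43%) of all genes tested. The median log2 fold change of all genes was 0.04. A level is described as held where the 95% confidence interval of the log2 fold change lay wholly within -1 and 1, that is within 2-fold of WT saline. This was so for 9465 genes (59.2%), of which 9461 were not called, and 6346 genes (39.7%) were neither called nor held. The 4 genes that were both were Emc10, a subunit of the membrane protein insertion complex of the endoplasmic reticulum (-0.67), Rps13 (-0.65), Lamtor3, a scaffold of the lysosomal Ragulator complex (-0.50), and Lgals8, a galectin that marks damaged endosomes (0.58). Emc10 was called in each of the 16 fits that left out 1 library, and Rps13 in 13. Lamtor3 was lost without WT saline replicate 1 or 3 or KO AngII replicate 2 or 4 (0.0536 to 0.0841), and Lgals8 was called in 4 of the 16 (0.0504 to 0.136 in the others). The counts moved by over 1.5 times with the libraries in the fit: calls higher and lower were 48 and 37 without WT saline replicate 1, 149 and 201 without its replicate 2, 50 and 40 without its replicate 3, and 55 and 47 without its replicate 4. Without KO AngII replicate 1 they were 478 and 140, without its replicate 2 they were 73 and 43, and without its replicate 3 they were 346 and 126. Without KO AngII replicate 4, 154 genes were called, and 124 of these were among the 177. That library had the highest sum of neuronal markers. Leaving it out did not remove them all, since KO AngII replicate 2 summed to 337 CPM, where WT saline reached at most 88.4. A fit of the 8 libraries alone called 68 genes, 65 of them among the 177. Of the genes described below as called in each fit with 1 library left out, Tef, Per3, Acan, Cilp2, Lamc3, Slc22a3 and Zfp429 were not called in that fit (adjusted p 0.0834 to 0.167), and neither were Glrb (0.13), Cd47 (0.118) and Emc10 (0.123).

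**Figure D1:**
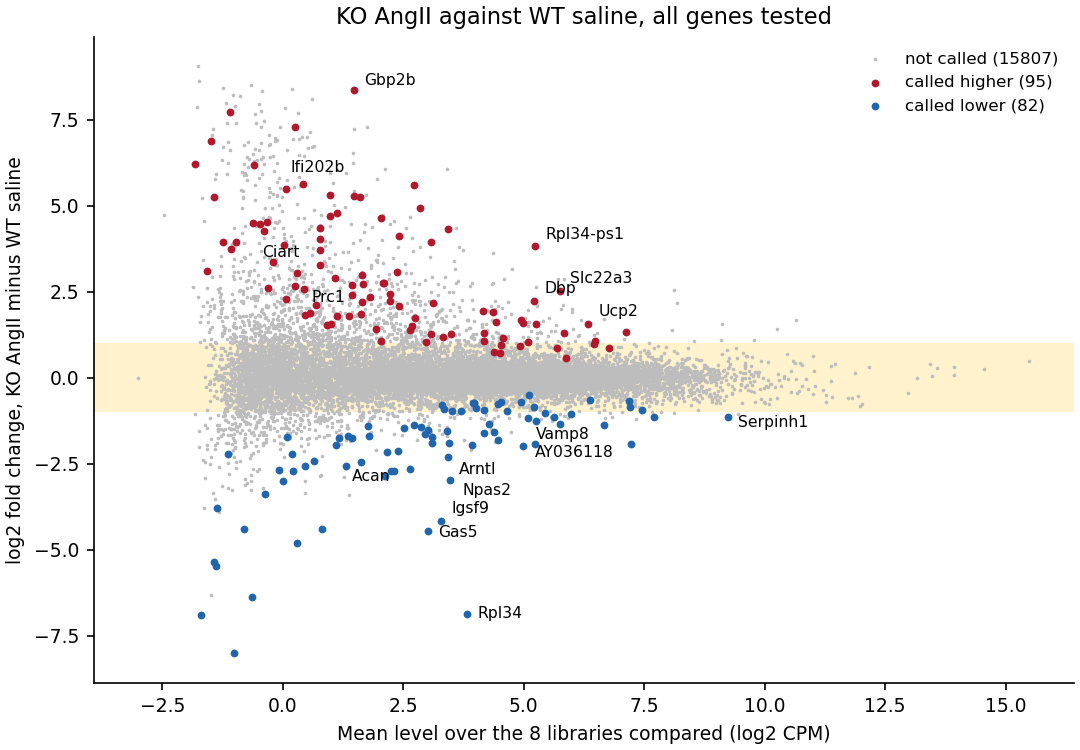
Log2 fold change of KO AngII against WT saline for each of the 15984 genes tested, over the mean level of the gene in the 8 libraries (log2 CPM). Red points are the 95 genes called higher, blue points the 82 called lower, grey points are not called, and the shaded band spans 2-fold either way.

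In the comparison of the other 8 libraries, WT AngII against KO saline, 873 genes were called higher (5.46%) and 473 lower (2.96%). The calls of KO AngII against WT saline mostly had the opposite sign there. Of the 95 genes higher in KO AngII, 72 were called lower in WT AngII than in KO saline, 19 were not called and 4 were called higher. Their median log2 fold changes were 2.43 and -1.72 in the comparisons. Of the 82 genes lower in KO AngII, 42 were called higher in WT AngII, 38 were not called and 2 were called lower, with medians of -1.72 and 0.88. A gene that differs by genotype alone has opposite signs in these comparisons, and a gene that differs by infusion alone has equal signs. The reverse need not hold, since a gene that stands apart in a single group can have either sign. The 4 called higher with angiotensin II in both were Prc1, Pbk, Aspm and Cdc25c, all genes of cell division. The 2 called lower with it in both were Hephl1 and Gm13861. Gm13861 was at 18.2, 7.44, 17.5 and 13.3 CPM in WT saline and 5.25, 6.64, 3.88 and 3.82 in KO AngII (-1.52, adjusted p = 0.025), and its call was lost without WT saline replicate 1, 3 or 4 or KO AngII replicate 4 (0.0545 to 0.0908) and in the 8-library fit (0.13). KO saline held 26.1 to 31.6% mitochondrially encoded reads and WT AngII 9.22 to 15.8%, and 11 of 13 mitochondrially encoded genes were called lower in WT AngII. The part of this difference in the calls was not tested beyond leaving those genes out, which gave 991 higher and 430 lower. The median over all genes in WT AngII against KO saline was -0.05.

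**Figure D2:**
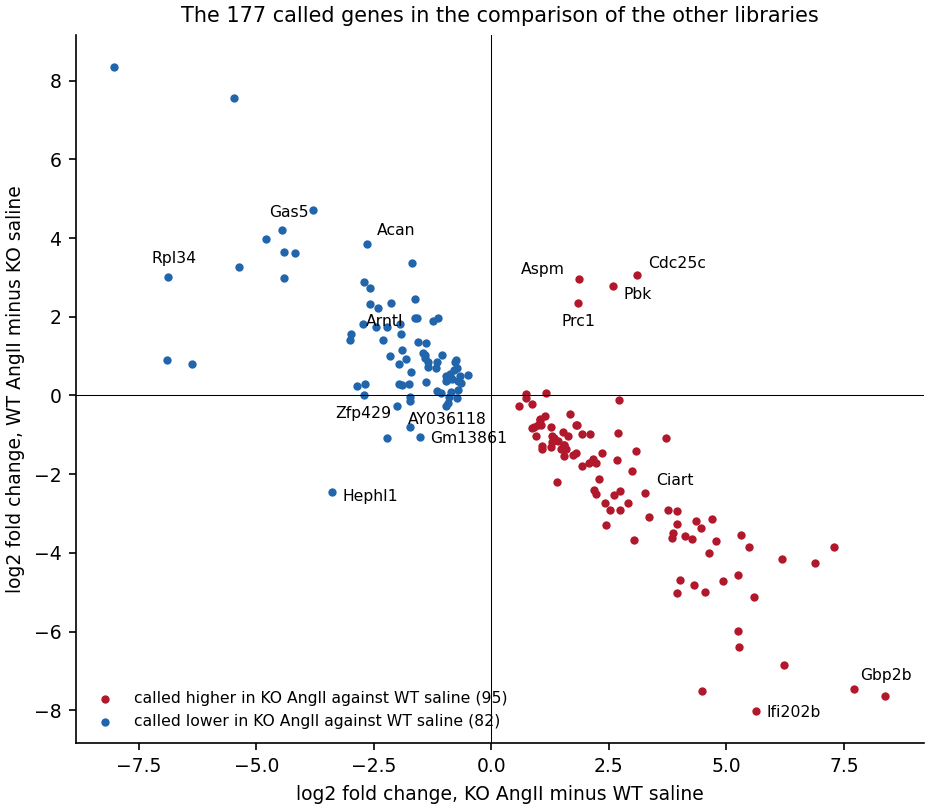
The 177 called genes, each placed by its log2 fold change in KO AngII against WT saline (horizontal axis) and in WT AngII against KO saline (vertical axis), which share no library. Of the 95 red genes 89 lie below 0 on the vertical axis and of the 82 blue genes 71 lie above 0, and 4 genes of cell division stand at the upper right.

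The circadian clock held the most calls of any of the 57 gene lists read, with 10 of its 19 genes called, 8 higher and 2 lower, and with no overlap of the libraries in 11. The clock is a transcriptional loop in nearly every cell: Arntl (BMAL1), paired with CLOCK or NPAS2, drives genes through the E-box, among them the Per, Cry and Nr1d repressors and the D-box factors Dbp, Tef and Hlf, and the ROR and NR1D receptors set the level of Arntl through the RORE. RefSeq windows of 250 bases before to 50 after a transcript start (GRCm38.p6, an earlier build than the GRCm39 of the counts) were found for 16 of the 19 genes. The E-box letters CACGTG, which read the same on both strands, were in the windows of 5 clock genes and in 7.15% of all 32851 windows, and 0.0883% of all held 3 or more. The D-box letters TTANGTAA, searched on both strands, were in 1 clock gene and in 2.32% of all windows (0.0822% with 2 or more), and the RORE, an AGGTCA site with a fixed flank before it, in 1 clock gene and 0.219% of all. Shown are the stretches with a match from clock genes called in each fit that left out 1 library, each on its gene's strand and with the motif in capitals, and no motif overlaps another in them. A match describes these letters only, and the absence of a match describes only this window.
Ciart (chr3:95882252-95882359, minus strand): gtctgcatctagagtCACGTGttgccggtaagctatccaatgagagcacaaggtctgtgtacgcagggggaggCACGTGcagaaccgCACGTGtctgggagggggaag
Tef (chr15:81802526-81802571, plus strand): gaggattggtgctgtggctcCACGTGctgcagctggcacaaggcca
Bhlhe41 (chr6:145865548-145865593, minus strand): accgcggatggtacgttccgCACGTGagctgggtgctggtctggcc
Per3 (chr4:151044801-151044885, minus strand): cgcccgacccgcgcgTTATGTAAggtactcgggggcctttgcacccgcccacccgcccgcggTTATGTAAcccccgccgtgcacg
Arntl (chr7:113207528-113207557, plus strand): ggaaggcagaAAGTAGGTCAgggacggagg

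Of the activators of the loop, Arntl and Npas2 were called lower, and Clock was lower by less and held within 2-fold. Arntl was at 30.2, 19.3, 26.1 and 22.8 CPM in WT saline and at 3.22, 3.59, 7.27 and 5.65 in KO AngII. The groups lay far apart, and Arntl, which carries the RORE letters from base 28 of its transcript, fell by a log2 fold of 2.31 ± 0.32 (adjusted p = 0.00171). Npas2, the alternative partner of BMAL1, was at 47.2, 16.3, 35.0 and 34.9 CPM against 4.34, 2.41, 7.33 and 2.68, and fell by 2.99 ± 0.45 (adjusted p = 0.00266). Clock itself, the usual partner, was held, at 94.2 against 67.7 CPM (-0.48, 95% interval -0.78 to -0.18, adjusted p = 0.104). Its interval lay below 0, and DESeq2 (adjusted p 0.0238) and limma voom (0.0498) called it. Nfil3, the repressor of D-box genes, was at 36.8 against 8.49 CPM and was not called by edgeR (-2.11, adjusted p = 0.0666). DESeq2 (adjusted p 0.00218) and limma voom (0.0265) called it.

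Of the repressor and output genes, 8 were called higher, and 4 of these were called in each fit with 1 library left out. Ciart, a repressor of the CLOCK and BMAL1 pair whose window held 3 E-boxes, was at 0.61, 0.326, 0.295 and 0.768 CPM in WT saline and at 6.86, 4.97, 3.72 and 4.22 in KO AngII, a log2 rise of 3.28 ± 0.45 (adjusted p = 0.00123). Bhlhe41 (DEC2), which competes for the E-box, was at 8.81, 8.55, 9.02 and 17.0 against 57.0, 34.6, 39.4 and 33.3 CPM (1.92 ± 0.29, adjusted p = 0.0026). For both genes every KO AngII library was above every WT saline library. The D-box activator Tef was at 64.7, 89.6, 65.5 and 146 against 270, 239, 200 and 208 CPM (1.33 ± 0.23, adjusted p = 0.01), again without overlap. Per3, whose window held 2 D-boxes, was at 6.91, 14.9, 7.55 and 22.1 against 50.4, 35.1, 37.4 and 37.4 CPM (1.63 ± 0.30, adjusted p = 0.0132). These 6 genes, Arntl, Npas2, Ciart, Bhlhe41, Tef and Per3, were called in each of the 16 fits that left out 1 library.

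The remaining clock calls depended on single libraries. Dbp, the third D-box activator, was at 11.3, 11.7, 7.67 and 49.9 CPM in WT saline and at 132, 84.3, 78.5 and 80.4 in KO AngII (2.22 ± 0.48, adjusted p = 0.0369), with WT saline replicate 4 far above its group, and it was called in 5 of the 16 fits (adjusted p 0.0502 to 0.13 in the others). Hlf rose from 19.1 to 57.0 CPM (1.58, adjusted p = 0.0182), a call lost without WT saline replicate 1 or 3 (0.0769 to 0.0774). Nr1d2 (REV-ERB beta) rose from 63.5 to 133 CPM (1.06, adjusted p = 0.0185), lost without WT saline replicate 1 or 3 or KO AngII replicate 2 (0.0563 to 0.0765). Bhlhe40 (DEC1) rose from 37.4 to 92.3 CPM (1.30, adjusted p = 0.034) and was called in 8 of the 16 fits (0.0509 to 0.153 in the others). Of the genes not called, Per2 was at 17.1 against 32.8 CPM (0.94, adjusted p = 0.134) and Nr1d1 at 123 against 196 (0.67, adjusted p = 0.274). The number of clock genes called was 6 to 11 over the fits with 1 library left out, lowest without WT saline replicate 1 or 3, and was 12 in DESeq2, 14 in limma voom and 4 in a fit of these 8 libraries alone.

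Several of the same genes also differed between WT AngII and KO saline, where genotype and infusion again changed together. Arntl averaged 20.9 CPM in WT AngII and 7.93 in KO saline, Ciart 0.679 and 3.83, and Tef 87.3 and 184. WT AngII was near WT saline, and KO saline near KO AngII. In WT AngII against KO saline 4 clock genes were called higher and 8 lower. Wee1, a clock-linked kinase that holds back entry into mitosis and is no member of the list, rose from 6.77 to 15.2 CPM (1.17, adjusted p = 0.0326). Its call was lost without WT saline replicate 1, 3 or 4 or KO AngII replicate 2 (0.0882 to 0.121). Clock genes cycle over the day, and whether the groups were collected at the same hour was not tested, since the sources used here do not give the hour.

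**Figure D3:**
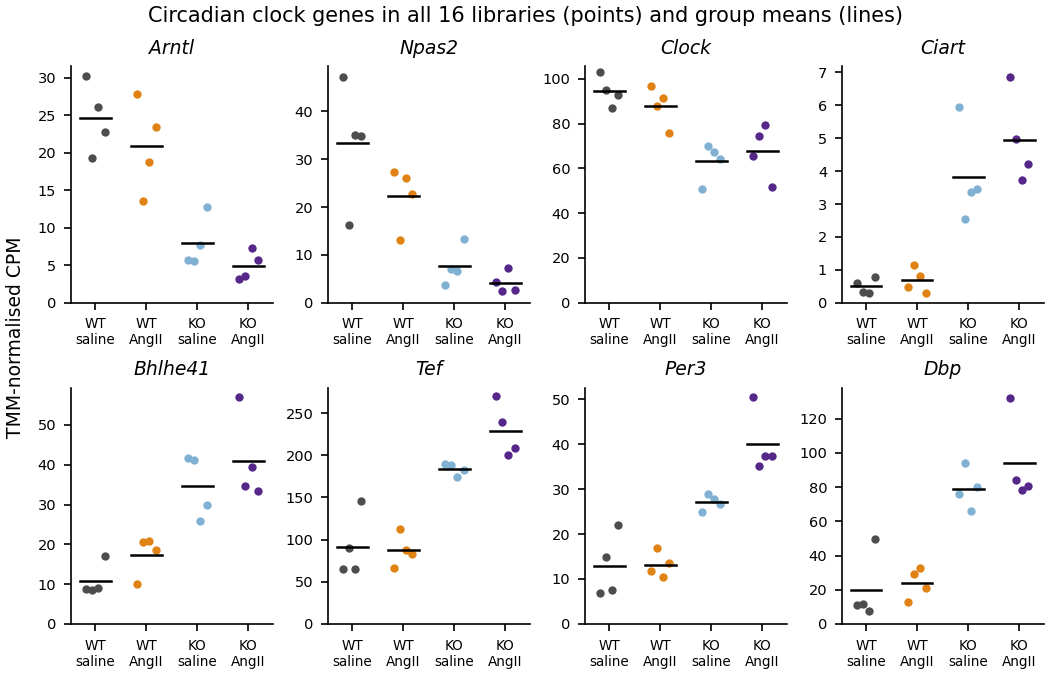
TMM-normalised CPM of 8 circadian clock genes in each of the 16 libraries (points) with group means (lines), each panel on its own linear axis from 0. Arntl and Npas2 are low and Ciart, Bhlhe41, Tef, Per3 and Dbp high in both KO groups, and Clock differs less.

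Mean levels of mitosis genes in KO AngII lay between those of WT saline and WT AngII. Of 28 mitosis and spindle genes 27 had positive fold changes, 20 of them at an unadjusted p under 0.05, and 2, Prc1 and Pbk, were called. Their median log2 fold change was 1.45, where that of all genes was 0.04. Against WT saline the median was 2.76 in WT AngII and 0.23 in KO saline, and in WT AngII against KO saline, with no library shared with the main comparison, 27 of the 28 were called higher with a median of 2.53. The mean log2 CPM of the list was 0.53, 0.69, 0.52 and 0.32 in WT saline and 0.60, 1.87, 1.51 and 2.64 in KO AngII, so that KO AngII replicate 1 was within the WT saline range and the others above it, and 2.38 to 3.57 in WT AngII. KO AngII replicate 4 was the highest of its group, and without it the median was 1.09 and no member was called. Over the fits with 1 library left out 0 to 12 members were called, none without WT saline replicate 3 or 4 or KO AngII replicate 2 or 4 and 12 without KO AngII replicate 1, while DESeq2 called 12 and limma voom 3.

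Prc1, which bundles the microtubules of the central spindle, was at 2.44, 1.5, 1.95 and 0.819 CPM in WT saline and at 3.22, 5.65, 5.08 and 10 in KO AngII. The groups did not overlap (1.84 ± 0.38, adjusted p = 0.0257), KO AngII replicate 4 was the highest, and WT AngII averaged 13.5 CPM. The call was lost without WT saline replicate 3 or 4 or KO AngII replicate 2 or 4 (0.0575 to 0.0815). The CHR element, through which the DREAM complex represses many mitotic genes outside division, has the letters TTTGAA, found on either strand in 17.9% of all windows. In Prc1 it stood 5 bases before the transcript start, in capitals here.
Prc1 (chr7:80294426-80294471, plus strand): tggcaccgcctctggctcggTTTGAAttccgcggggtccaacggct

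Pbk, a mitotic kinase, was at 0.579 against 3.48 CPM (2.59, adjusted p = 0.0419) with overlapping groups, called in 3 of the 16 fits with 1 library left out. Aspm, a spindle pole protein, was at 0.756 against 2.79 CPM (1.87, adjusted p = 0.0375) and was called in 2 of the 16. Cdc25c, the phosphatase that starts mitosis, was at 0.0573 against 0.575 CPM (3.11, adjusted p = 0.0244) at low levels in every library, and was called in 11 of the 16. Without KO AngII replicate 4 the adjusted p was 0.107 for Pbk, 0.0994 for Aspm and 0.0666 for Cdc25c. The proliferation marker Mki67 was at 4.07, 7.44, 4.36 and 5.27 CPM in WT saline and 6.65, 11.4, 15.6 and 21.4 in KO AngII, which overlapped, and was not called (1.38, adjusted p = 0.0967). Top2a, which untangles chromosomes, was at 3.58 against 12.2 CPM (1.77, adjusted p = 0.0553), and Ccnb1, the mitotic cyclin, at 0.568 against 3.13 (2.45, adjusted p = 0.0529). DNA replication genes had a median of 0.43, with 0 of 25 called by edgeR, 5 by DESeq2 and 3 by limma voom, 7 higher and 1 lower at an unadjusted p under 0.05, and 11 held.

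Structural matrix genes had medians below the WT saline level, and few genes passed the test. Adventitial fibroblast markers had a median of -0.35 with 13 of 17 negative, 5 lower at an unadjusted p under 0.05, none called by edgeR or limma voom and 2 by DESeq2, and their sum was 5250 to 8280 CPM in WT saline and 4390 to 6350 in KO AngII. Their part in the matrix values was not tested. None of 9 fibrillar collagens was called in edgeR, DESeq2 or limma voom, none had an unadjusted p under 0.05, their median was -0.51, and 2 were held. Col3a1 was at 6370, 3170, 3670 and 4540 CPM in WT saline and 1520, 3490, 2660 and 4020 in KO AngII, which overlapped (-0.60, 95% interval -1.48 to 0.27). Col1a2 was at 3370 against 2300 CPM (-0.55, interval -1.23 to 0.13). In the other libraries the list was higher in WT AngII than in KO saline, with 5 of 9 called and a median of 2.08. Basement membrane genes, which form the sheet around each smooth muscle cell, also had a median of -0.51 with 0 of 19 called, 8 lower at an unadjusted p under 0.05, and 4 called by DESeq2 and by limma voom. Col4a1 was at 1320 against 810 CPM (-0.71, adjusted p = 0.135) and Col18a1 at 1460 against 949 (-0.62, adjusted p = 0.344). Sparc, a collagen-binding matricellular protein, was at 5530 against 3270 CPM (-0.76, adjusted p = 0.149). Eln, the elastin gene, was at 8920, 2560, 5940 and 5650 against 2010, 4170, 4190 and 2710 CPM and was not called (-0.82, adjusted p = 0.306), while WT AngII averaged 17400.

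Single matrix genes did pass. Serpinh1, the collagen chaperone HSP47 of the endoplasmic reticulum, was at 1120, 734, 1050 and 773 CPM in WT saline and 280, 435, 454 and 494 in KO AngII. It fell without overlap (-1.14 ± 0.23, adjusted p = 0.0253) as the only call among 24 collagen processing genes, and was lost without WT saline replicate 1 or 3 or KO AngII replicate 2 (0.0695 to 0.0858). Acan, the large cartilage proteoglycan aggrecan, was at 14.5, 5.68, 17.5 and 31.6 against 1.89, 2.70, 4.81 and 1.54 CPM, and fell by 2.65 ± 0.46 (adjusted p = 0.00934) as the only call of 17 proteoglycan genes. It averaged 47.5 CPM in WT AngII and 3.26 in KO saline. Cilp2, a cartilage matrix protein and the only call of 13 osteochondrogenic genes, fell from 6.17 to 1.02 CPM (-2.58, adjusted p = 0.0101), and the laminin chain Lamc3 from 44.0 to 12.6 (-1.81, adjusted p = 0.0135). Acan, Cilp2 and Lamc3 were called in each of the 16 fits with 1 library left out. Efemp1 (fibulin-3) was the 1 called member of 16 elastic fibre genes, whose median was -0.44. It rose from 16.6 to 32.2 CPM (0.95, adjusted p = 0.0288) and was lost without WT saline replicate 1, 3 or 4 or KO AngII replicate 2 or 4 (0.0754 to 0.106).

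Spp1, Timp1 and Fn1 had high means in WT AngII, and their KO AngII means were nearer to WT saline. Spp1 and Timp1 were picked with their values in view, so they do not stand for a list. Single matricellular genes had log2 fold changes from -0.76 to 2.92 in KO AngII against WT saline. Of 21 matricellular genes none was called in edgeR, 2 were higher and 3 lower at an unadjusted p under 0.05 (16.1% of all genes in either direction), DESeq2 and limma voom each called 1, and the median was 0.20. Spp1 (osteopontin) was at 2.03, 0.457, 0.944 and 1.18 CPM in WT saline and 0.70, 2.66, 2.13 and 8.56 in KO AngII (1.62, 95% interval -0.85 to 4.08), and averaged 109 CPM in WT AngII. Timp1, an inhibitor of metalloproteinases, was at 14.7 against 21.7 CPM (0.56, interval -0.65 to 1.77) and averaged 118 in WT AngII. The intervals of both are wide and do not place them within 2-fold. Fn1, fibronectin, was held (2080 against 2350 CPM, 0.18, interval -0.56 to 0.92), with a mean of 4060 CPM in WT AngII and 806 in KO saline. The alternative settings kept Fn1 within 2-fold in 21 cases and did not in 7.

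**Figure D4:**
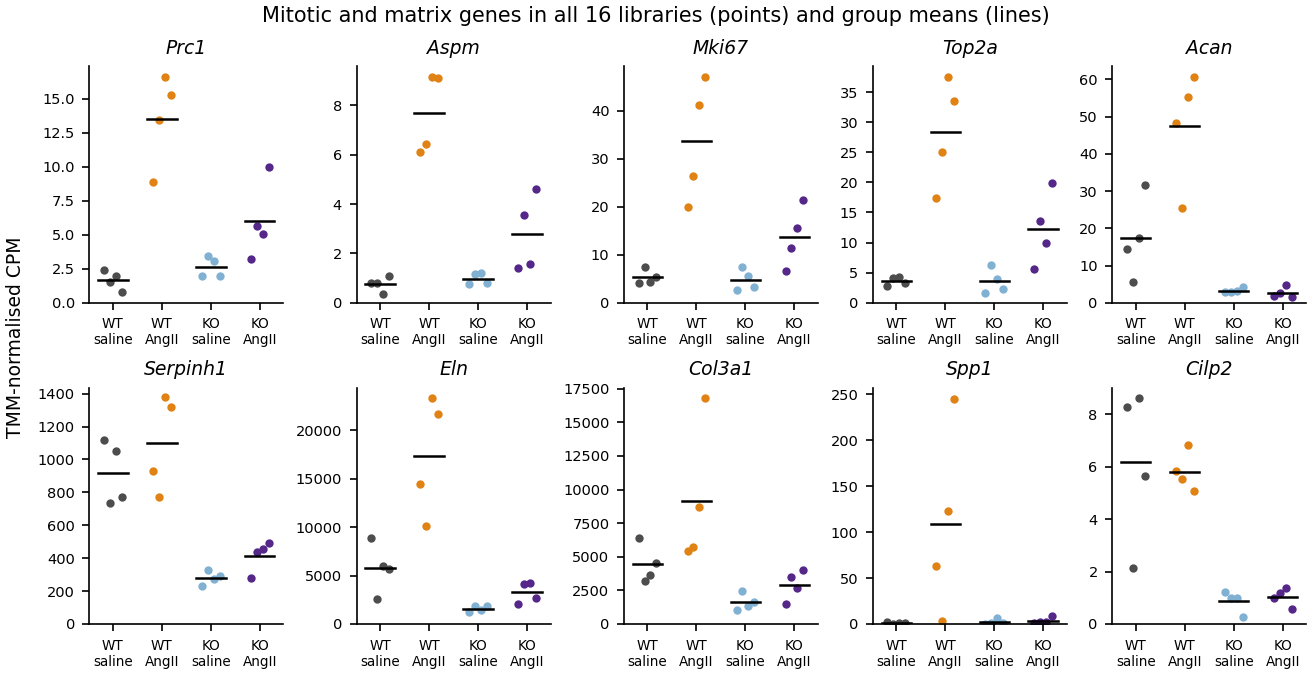
TMM-normalised CPM of 4 mitotic genes (Prc1, Aspm, Mki67, Top2a) and 6 matrix genes in each of the 16 libraries (points) with group means (lines), each panel on its own linear axis from 0. The mitotic genes in KO AngII lie between WT saline and WT AngII, and Acan, Serpinh1 and Cilp2 are low in both KO groups.

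None of 21 smooth muscle contractile genes was called by edgeR, DESeq2 or limma voom, and none had an unadjusted p under 0.05. Their median was -0.39 (-0.20 without KO AngII replicate 4) and 5 were held. Myh11, smooth muscle myosin, was at 5880, 1990, 5240 and 5890 CPM in WT saline and 3640, 3760, 3670 and 1510 in KO AngII, with 1 low library in each group, and gave -0.60 (95% interval -1.38 to 0.19). Acta2, smooth muscle actin, was at 10300 against 7550 CPM (-0.44, interval -1.23 to 0.35). Of 20 TGF-beta pathway genes 19 were held, among them Ski, which restrains SMAD signalling (269 against 243 CPM, -0.15), and the endothelial co-receptor Eng (185 against 181 CPM, -0.03). Of 17 vascular endothelial markers 12 were held. Pecam1 was at 367 against 340 CPM (-0.11, interval -0.75 to 0.53), and Vwf at 263 against 310 (0.24, interval -1.01 to 1.49), its sign turning without KO AngII replicate 2 (-0.38).

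Most genes of the degradative and secretory machinery in which Vamp8 works were held. All 23 autophagy genes had intervals within 2-fold, none was called by edgeR, DESeq2 or limma voom, and none had an unadjusted p under 0.05. Gabarap, a lipid-linked autophagosome protein, was at 236 ± 16 against 238 ± 14.6 CPM (0.01, interval -0.38 to 0.40). The cargo receptor Sqstm1 (p62) was at 237 against 268 CPM (0.17, interval -0.11 to 0.45). Of 28 lysosomal genes 27 were held, among them Psap (1360 against 1350 CPM) and the protease Ctsb (908 against 980 CPM, 0.11). Of 21 other endosomal and secretory SNARE genes 17 were held, Vamp5 was the 1 called, and 6 were higher and 1 lower at an unadjusted p under 0.05, while DESeq2 called 1 and limma voom 2. Of 78 ribosomal protein genes 74 were held. Unfolded protein response genes had a median of -0.20 with 19 of 22 held. Of these 22, 7 were lower at an unadjusted p under 0.05, none was called by edgeR, DESeq2 called 2 and limma voom 4, and both leading chaperones were held, Hspa5 at 486 against 340 CPM (-0.51) and Calr at 487 against 366 (-0.41).

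**Figure D5:**
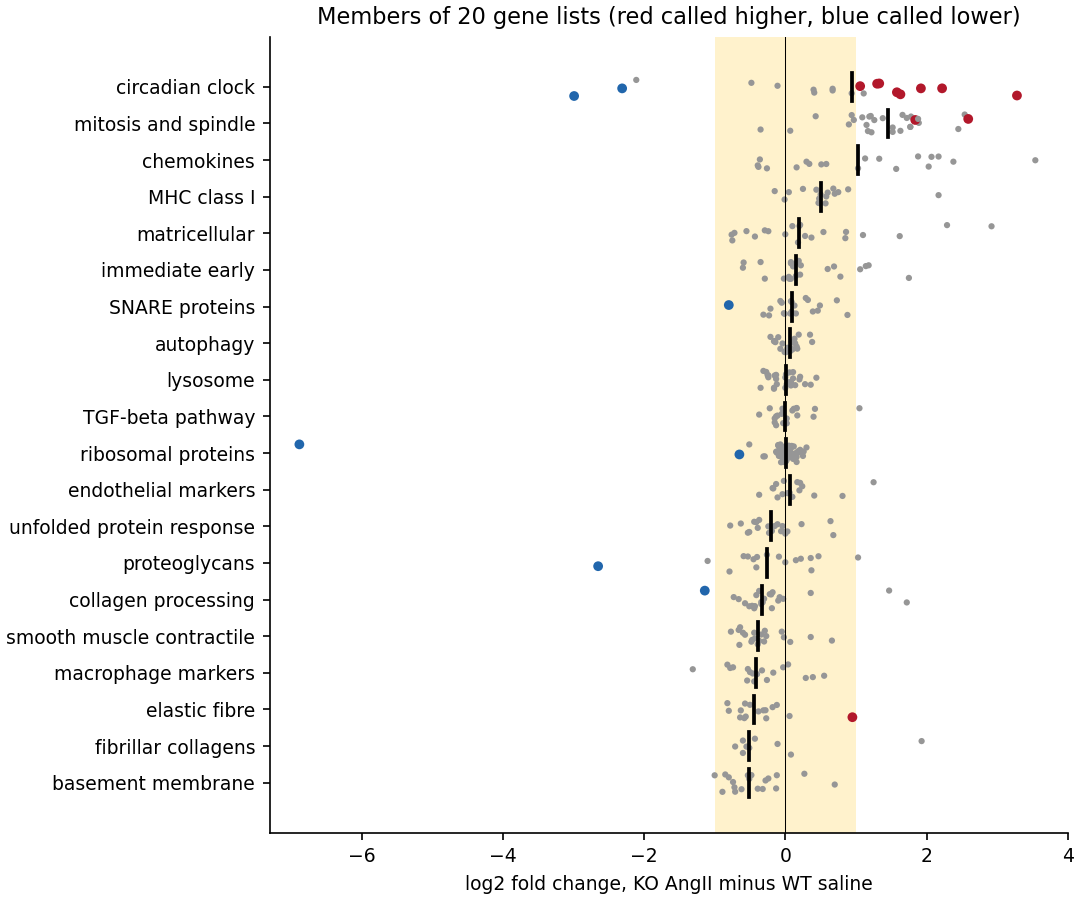
Log2 fold changes of KO AngII against WT saline for the tested members of 20 gene lists (points), with the median of each list (black line) and a shaded band of 2-fold either way. The clock list spreads to both sides with 10 called members, mitosis lies to the right with a median of 1.45, autophagy, lysosome and TGF-beta genes lie in the band, and fibrillar collagen and basement membrane medians are at -0.51.

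Few immune genes were called. Neither called nor held were 16 of 19 chemokines, 11 of 18 resident macrophage markers and 8 of 17 MHC class I genes. Fcgr3, an activating Fc receptor of macrophages, fell from 14 to 4.52 CPM (-1.63, adjusted p = 0.0298), a call lost without WT saline replicate 2, 3 or 4 or KO AngII replicate 2 or 4 (0.0513 to 0.0981). Cd300ld, a myeloid surface receptor, fell from 4.54 to 1.39 CPM (-1.69, adjusted p = 0.0326) and was called in 10 of the 16 fits with 1 library left out. Of 18 resident macrophage markers none was called by edgeR and DESeq2 called 1, 4 were lower at an unadjusted p under 0.05, and the median was -0.42, with Cbr2 at 224 against 130 CPM (-0.78) and F13a1 at 82.7 against 59.9 (-0.46). The summed markers were 596 to 919 CPM in WT saline and 387 to 601 in KO AngII, and their part in the lower receptor levels was not tested. Chemokines had a median of 1.03 with none of 19 called, 8 higher at an unadjusted p under 0.05 and 3 called by DESeq2. Ccl21a, which guides cells along lymphatic vessels, was at 16 against 40.4 CPM with overlapping groups (1.33, adjusted p = 0.287), and Cxcl12 was held (220 against 246 CPM). MHC class I genes had a median of 0.50 with none of 17 called, 9 higher at an unadjusted p under 0.05 (10.1% of all genes), 1 called by DESeq2 and 5 by limma voom. B2m, the shared light chain, was at 433, 639, 559 and 445 CPM in WT saline and 741, 747, 738 and 678 in KO AngII, without overlap but held (0.48, adjusted p = 0.21). H2-D1 was at 508 against 757 CPM (0.58, adjusted p = 0.161).

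Some innate immune genes were at very low levels in 1 genotype. Of 19 genes of the Ifi200 and Trim clusters 2 were called higher and 1 lower, with 9 positive and 10 negative folds and a median of -0.05, and 8 were higher and 6 lower at an unadjusted p under 0.05. DESeq2 called 9 and limma voom 11, and edgeR called 6 without KO AngII replicate 4. None of 16 guanylate-binding protein and related GTPase genes, a list without Gbp2b, and none of 26 type I interferon-stimulated genes was called by edgeR, DESeq2 or limma voom, and 0 and 1 had an unadjusted p under 0.05, with medians of 0.28 and 0.35. Gbp2b, an interferon-induced GTPase, was at 0.339, 0, 0.059 and 0.0512 CPM in WT saline and 31.6, 40.0, 30.9 and 49.2 in KO AngII (8.38 ± 0.65, adjusted p = 3.65e-06), and averaged 37.8 CPM in KO saline and 0.186 in WT AngII. Ifi202b, of the interferon-inducible DNA sensor family, rose from 0.142 to 7.19 CPM (5.63, adjusted p = 8.26e-06) and Trim34b from 0.225 to 2.35 (3.35, adjusted p = 0.00209). Ifi213, of the same family as Ifi202b, fell from 0.968 to 0.0137 CPM (-5.47, adjusted p = 0.0257), called in 11 of the 16 fits with 1 library left out. Members of these clusters are close copies of each other, so the assignment of their reads is uncertain. Gas5, a noncoding host gene of small nucleolar RNAs, was at 36.3, 25.9, 45.8 and 42.2 against 1.12, 1.67, 2.30 and 1.65 CPM, and fell by 4.46 ± 0.26 (adjusted p = 2.04e-07). It averaged 41.9 CPM in WT AngII and 2.25 in KO saline. Cd47, the signal that restrains phagocytes, rose from 82.2 to 150 CPM (0.87, adjusted p = 0.00934). Cd200, another restraining ligand, fell from 321 to 145 CPM (-1.15, adjusted p = 0.0208), a call lost without WT saline replicate 1, 3 or 4 or KO AngII replicate 2 (0.0612 to 0.0673).

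Among the other largest rises, some were largest in KO AngII replicate 4, the library with the highest neuronal markers. Ptprn2, a protein of neuroendocrine secretory granules, was at 1.82, 7.03, 0.875 and 92.7 CPM in KO AngII and at most 0.407 in WT saline (7.30, adjusted p = 0.0341), and without replicate 4 it gave 4.29 and was not called (adjusted p = 0.101). Glrb, a glycine receptor subunit, was at 3.64, 4.92, 2.46 and 38.3 CPM against 0.407 to 0.587 (4.70, adjusted p = 0.00582), or 2.95 without replicate 4. Rises that did not follow replicate 4 were those of Atp1a4, a sodium pump subunit best known from sperm (0.0311 to 2.78 CPM, 6.19, adjusted p = 0.00178), Gchfr, which regulates tetrahydrobiopterin synthesis (44.3, 16.3, 11 and 12.2 CPM in KO AngII, 4.63, adjusted p = 0.0135), and the protease Ctse (0.125 to 2.83 CPM, 4.46, adjusted p = 0.0165). The calls of Gchfr and Ctse were lost without WT saline replicate 1, 3 or 4 (0.0592 to 0.0631 and 0.0612 to 0.0688).

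Other genes that rose included an uncoupling protein and a transporter, while no member of the metabolic lists was called by edgeR (0 of 33 oxidative phosphorylation, 20 fatty acid, 18 glycolysis and 20 redox genes). DESeq2 and limma voom each called 1 redox gene and none of the rest, and at an unadjusted p under 0.05 there were 2 higher glycolysis genes and 3 higher and 1 lower redox genes. Ucp2, an uncoupling protein of the mitochondrial inner membrane, was at 39.9, 60.4, 41.3 and 49.8 CPM in WT saline and 135, 139, 167 and 120 in KO AngII (1.55 ± 0.16, adjusted p = 8.14e-05). Slc22a3, an organic cation transporter that takes up monoamines, was at 13.5, 43.3, 31.1 and 11.2 against 201, 153, 131 and 85.4 CPM (2.52, adjusted p = 0.00474). Neither gene's groups overlapped, and both were called in each of the 16 fits with 1 library left out. Leptin (Lep), the 1 called member of 13 general adipocyte markers, rose from 9.96 to 38.3 CPM (1.94, adjusted p = 0.028), lost without WT saline replicate 1, 3 or 4 or KO AngII replicate 2 (0.0603 to 0.121). The adipocyte markers summed to 3320 to 15100 CPM in WT saline and 7370 to 14800 in KO AngII. Mc2r, the corticotropin receptor, which adipocytes also express, rose from 0.443 to 2.88 CPM (2.68, adjusted p = 0.0221), lost without WT saline replicate 1 or 4 or KO AngII replicate 2 or 4 (0.0508 to 0.106). Agtr1a, the type 1 angiotensin receptor, was at 4.07, 5.28, 5.25 and 2.56 against 5.25, 7.52, 3.61 and 49.6 CPM and was not called (1.94, adjusted p = 0.145), with 0.34 when replicate 4 was left out.

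Among the largest falls in coding genes, Igsf9, Gm15446 and Pdzd7 were also low in KO saline. Igsf9, an adhesion protein of the immunoglobulin family, was at 55.5, 19.1, 42.6 and 63.0 CPM in WT saline and 3.85, 0.836, 3.61 and 1.77 in KO AngII (-4.17 ± 0.49, adjusted p = 0.00028), and averaged 2.53 in KO saline. Gm15446 fell from 5.10 to 0.181 CPM (-4.80, adjusted p = 1.35e-05) and Pdzd7, a scaffold protein of hair cells, from 12.9 to 1.95 (-2.72, adjusted p = 0.00618). The KO saline means of these were 0.262 and 2.71 CPM. Pgpep1l fell from 2.46 to 0.301 CPM (-3.01), a call lost without WT saline replicate 1 (0.0618). Adh7, which oxidises retinol, fell from 12.7 to 1.74 CPM (-2.86) and the claudin Cldn10 from 2.25 to 0.355 (-2.68), and each was lost without WT saline replicate 1 or 4 or KO AngII replicate 2 or 4 (0.0563 to 0.0648 and 0.0635 to 0.103). Hephl1, a copper ferroxidase, was at 1.15, 5.09, 2.77 and 0.512 against 0.49, 0.148, 0.0547 and 0.228 CPM (-3.38, adjusted p = 0.0458) and was called in 3 of the 16 fits.

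A few genes were low in KO AngII and near WT saline in the other 3 groups. Zfp429, a zinc finger gene, was at 3.73, 2.35, 2.24 and 2.87 CPM in WT saline and 0.21, 0.492, 0.109 and 0.856 in KO AngII (-2.71, adjusted p = 0.00934), with means of 2.77 in WT AngII and 2.74 in KO saline. AY036118, a noncoding transcript, was at 64.5, 45.9, 72.9 and 71.4 against 16.2, 13.4, 18 and 15.9 CPM (-2.0, adjusted p = 0.00117), with means of 64.9 and 78.0 in WT AngII and KO saline. Prxl2c, a peroxiredoxin-like protein, was at 77.8, 62.9, 70.6 and 82.6 against 37.4, 32.5, 34.6 and 28.1 CPM (-1.15, adjusted p = 0.00209), with means of 72.0 and 66.4. All 3 were called in each of the 16 fits with 1 library left out. They were chosen for this description after their values were seen, and the difference of the angiotensin II effect between genotypes did not pass for any of them (adjusted p of the interaction 0.361, 0.0621 and 0.361, with 0.0188% of all genes passing).

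Pseudogenes were 4.53% of the genes tested and 18.1% of those called, 32 of 724 (4.42%), with 28 higher and 4 lower, while 122 of 13893 protein-coding genes were called (0.878%). Several calls were a gene and its pseudogene copy moving in opposite directions, and their reads cannot be assigned with certainty. Sequence identity was computed for the copies of Rpl34 and Rps13 only. Rpl34, a protein of the large ribosomal subunit, was at 160, 123, 175 and 153 CPM in WT saline and 1.26, 0.983, 2.24 and 0.685 in KO AngII (-6.88, adjusted p = 0.00304), and Rpl34-ps1 rose from 9.97 to 143 CPM (3.84, adjusted p = 4.67e-06). Their sum was 163 ± 23.2 against 144 ± 6.99 CPM, with overlapping groups. Rps13 fell from 105 to 66.8 CPM (-0.65, adjusted p = 0.0185, lost without WT saline replicate 1 or 3 or KO AngII replicate 2, 0.0639 to 0.0697), Rps13-ps2 fell from 7.04 to 0.323 (-4.41) and Rps13-ps1 rose from 2.39 to 47.5 (4.31), and the sum of the 3 was 114 ± 11.2 against 115 ± 3.86 CPM. Rnps1, a splicing factor, fell from 36.2 to 12.1 CPM (-1.59) while Rnps1-ps rose from 0.465 to 18.5 (5.25), with sums of 36.6 ± 1.15 and 30.6 ± 2.11 CPM that did not overlap. Gpr137b rose from 12.4 to 26.2 CPM (1.07) while Gpr137b-ps fell from 11.9 to 1.81 (-2.71), with sums of 24.3 ± 5.05 and 28.0 ± 2.56.

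The copies of the ribosomal protein genes differ from their parents by at most 2 bases over the aligned coding sequence. Over the coding sequence in GENCODE M21 transcripts, Rpl34-ps1 was 99.4% identical to Rpl34 (2 mismatches in 354 bases), Rps13-ps1 was 99.6% identical to Rps13 (2 in 456), and Rps13-ps2 matched in all of 453 aligned bases. Stretches of 60 bases around a mismatch are shown, with the differing bases in capitals, since these are the only letters in them by which a read can be told to come from one or the other. Those of Rpl34 are coding bases 102 to 161 and those of Rps13 are bases 381 to 440.
Rpl34: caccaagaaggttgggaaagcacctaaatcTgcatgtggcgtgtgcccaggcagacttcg
Rpl34-ps1: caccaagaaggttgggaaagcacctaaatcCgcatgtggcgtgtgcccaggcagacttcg
Rps13: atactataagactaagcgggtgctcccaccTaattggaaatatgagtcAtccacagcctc
Rps13-ps1: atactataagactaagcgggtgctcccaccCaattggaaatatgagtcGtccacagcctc

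The table also differed by genotype as a whole: 2725 genes without a symbol had 0 reads in all 8 WT libraries, and 1401 genes had 0 reads in all 8 KO libraries. A difference in counting by genotype and a difference by genotype cannot be told apart in these counts. The called genes lay on many chromosomes, with 25 of 1205 tested on chromosome 7 (2.07%), 13 of 601 on chromosome 13 (2.16%) and 16 of 742 on chromosome 17 (2.16%). There were 15 of 957 on chromosome 1 (1.57%), 15 of 826 on chromosome 6, which holds Vamp8 (1.82%), and 2 of 765 on chromosome 10 (0.261%).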

How the data were processed

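Poly-A enriched RNA of suprarenal aortae was sequenced in pairs of reads. The values deposited by the authors were raw read counts per gene. Per the submitters' processing notes, reads were processed against GRCm39 with featureCounts 1.5.0-p3, HISAT2 2.0.5 and DESeq2 1.20.0. The sources used here do not give the handling of strand or of reads that match several places. Of 29695 genes, 15984 passed edgeR's default filter and 13711 did not. All 16 libraries entered 1 model of group means (12 residual degrees of freedom), fitted by edgeR's quasi-likelihood test (R 4.3.3, edgeR 4.0.16) after TMM scaling, without a replicate block. The biological coefficient of variation was 35.3%. Standard errors are the log2 fold change over the square root of F. The test was checked on simulated counts. The members and gene lists were chosen with earlier results of these data known. Named genes were Vamp8, the largest rises and falls among called coding genes (10 each at most, with no overlap, reads in both genotypes and a higher group averaging 1 CPM or more), up to 4 called members of a list by p, or its 2 with the highest CPM. Of the genes this rule names, 1 is not reported here. Any other gene named was picked with its values in view. Alternatives were RLE scaling, mitochondrially encoded genes left out, no filter, a filter of 1 CPM in 4 libraries, DESeq2 1.42.0, limma 3.58.1 voom, robust estimation, only the groups compared, a replicate block, covariates for adipocyte and neuronal markers, a 1.5-fold band, and libraries left out. P-values measure the spread between these samples.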

Additional observations from a re-analysis of the deposited data

Results flagged for a closer look

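Within a group of 4, a library was marked where its gap to the nearest other exceeded Dixon's 95% limit. This was checked in 202 groups of named genes and found 21, and chance alone marks about 1 in 20. Most were in KO AngII replicate 4, the library with the highest neuronal and chromaffin markers: Dbh was at 831 CPM with the next library at 41.9, Th at 481 with the next at 24.0, Uchl1 at 878 with the next at 72.2, Ptprn2 at 92.7 with the next at 7.03, Glrb at 38.3 with the next at 4.92, and Agtr1a at 49.6 with the next at 7.52. In the same library Vamp8 was at 14.1 CPM (next 24.6), Myh11 at 1510 (next 3640), Nr1d2 at 98.1 (next 141), B2m at 678 (next 738) and Lgals8 at 88.4 (next 69.3).

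KO AngII replicate 1 was high in Per3 (50.4 CPM, next 37.4), Dbp (132, next 84.3) and Gchfr (44.3, next 16.3), and KO AngII replicate 3 held the only Ifi213 reads of its group (0.0547 CPM, the others 0). In WT saline, replicate 4 was high in Dbp (49.9 CPM, next 11.7), Bhlhe41 (17.0, next 9.02) and F13a1 (140, next 70.3). WT saline replicate 2 was low in Myh11 (1990 CPM, next 5240) and Timp1 (12.3, next 15.3), and WT saline replicate 1 was high in Dbh (3.05, next 0.177).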

How the results depend on the processing

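The main counts were 95 genes higher, 82 lower and 9465 held within 2-fold, and in WT AngII against KO saline 873 higher and 473 lower. DESeq2 called 581 higher and 305 lower (1419 and 969 in the other libraries) and included 176 of the 177 calls, and limma voom called 384 and 538 (1460 and 1152) and included 170. A fit of only the groups compared called 42 and 26. With the adipocyte score as a covariate there were 260 and 134 (521 higher in the other libraries), and with the neuronal score 52 lower. Without a filter, 278 were lower in the other libraries. A 1.5-fold band held 5075 genes. With 1 library left out, calls ran from 48 to 478 higher and from 37 to 201 lower, genes held from 8583 to 9713, and calls in the other libraries from 344 to 1204 higher and from 144 to 657 lower. The other settings left these counts within 1.5 times of the main ones. Signs turned for 3 genes that were not called: Vwf with the replicate block (-0.01), with the neuronal score (-0.21) and without KO AngII replicate 2 (-0.38, the lowest with 1 library left out, where the highest was 0.53), and Dbh (-0.62) and Th (-0.93) with the neuronal score. With the replicate number as a block 71 genes were higher and 62 lower, and 128 of these 133 were among the 177. The block was not used because the labels do not say that a number pairs animals. KO AngII and WT saline libraries with the same number did not deviate together (correlations -0.361, -0.192, 0.00883 and -0.0752, none best matched to its own number). These few correlations cannot show whether animals with the same number were handled together.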
